A study of Mus musculus with 18 samples.

Results

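Serpins are a family of proteins that share a fold and mostly block serine proteases. The family was taken as every gene of the tumor count table with the biotype protein_coding and a name of Serpin, a letter from a to i and a digit, which gave 60 of the 43346 genes in the table. The letter is the clade, a branch of the family: 23 members were in clade A, 26 in B, 3 in E, 2 each in F and I, and 1 each in C, D, G and H. Another 8 serpin-named genes of other biotypes (pseudogenes and processed transcripts) were left out, and so was Agt, a clade A relative whose name the rule does not match. Mouse tumor nodules driven by myristoylated AKT (myr-AKT) together with a mutant of the transcriptional coactivator YAP were profiled by poly(A) RNA sequencing. YAP-S carried S127A, and YAP-SY carried S127A/Y357F, so that all 12 tumors had myr-AKT and the S127A change. Each tumor was labelled CCA, the usual abbreviation of cholangiocarcinoma, or mixed, which gave 4 groups of 3 tumors: YAP-S CCA (tumors 3, 4 and 5), YAP-SY CCA (1, 6 and 8), YAP-S mixed (2, 7 and 9) and YAP-SY mixed (3, 5 and 9). The cell line SB1, whose label carries the YAP-S CCA genotype, gave 3 more samples. Strain, age, the promoter of the transgenes and whether SB1 is a single clone are not given in the sources used here, and the labels do not say that tumors of a group came from separate mice, so p-values measure the spread between these samples.

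A serpin presents an exposed stretch, the reactive centre loop, as bait. When a protease cuts it, the loop snaps into the body of the serpin and the enzyme is trapped and distorted. Hepatocytes secrete most plasma serpins, among them alpha-1-antitrypsin (the Serpina1 genes), antithrombin (Serpinc1) and heparin cofactor II (Serpind1). Clade B members lack a classical signal peptide and act mostly inside cells, clade E members hold back the activators of plasmin, and Serpinh1 is a collagen chaperone with no protease target.

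Total counts ranged from 30656499 to 130035221 in the tumors and from 25341968 to 30541185 in SB1. Values below are CPM (a gene's reads relative to the TMM-scaled library total), and levels are compared between genes only as CPM per kb of the deposited gene length. Yap1 was measured at 73.6 to 114 CPM in the tumors, and these counts do not read the mutated codons, so they do not check the labels. Akt1 was 744.3, 482.5 and 833.8 CPM in YAP-S CCA and 198.7, 105.4 and 276.0 CPM in YAP-SY CCA, without overlap (log2 -1.83 ± 0.44 SE, edgeR adjusted p = 0.00643). It was 383.8, 931.1 and 256.4 CPM in YAP-S mixed and 415.8, 520.3 and 379.6 CPM in YAP-SY mixed. Whether these counts include transgene reads is not given in the sources used here, and the part of this difference in the serpin results was not tested. The summed level of 8 hepatocyte markers was 48790 to 60360 CPM in YAP-S CCA, 140000 to 162200 in YAP-SY CCA, 81810 to 89430 in YAP-S mixed and 87570 to 114700 in YAP-SY mixed. For 8 cholangiocyte markers the sums were 7274 to 10740, 2759 to 4172, 9350 to 10150 and 4247 to 16400 CPM in the same order, and for 8 fibroblast and stellate cell markers 1958 to 2446, 454.5 to 626, 831.3 to 1090 and 666.7 to 1002 CPM. The tumors labelled YAP-SY CCA therefore held the highest hepatocyte sums and the lowest cholangiocyte and fibroblast sums of the 4 groups. Nearly all of each cholangiocyte sum was Spp1, at 7001 to 10500, 2717 to 4074, 9159 to 9980 and 4088 to 16190 CPM in the same order. The cholangiocyte sums thus describe Spp1 more than the other markers, and Alb made up most of each hepatocyte sum. In bulk tissue, fewer cells of a type and less RNA per cell cannot be told apart.

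Serpins took 1.98 to 2.87% of all counts in YAP-S CCA tumors, 3.45 to 3.69% in YAP-SY CCA, 2.62 to 3.24% in YAP-S mixed and 1.97 to 3.05% in YAP-SY mixed. Clade A supplied the highest levels. Over the 12 tumors, Serpina1e averaged 4716 CPM per kb and Serpina3k 4273 CPM per kb, followed by Serpina1c at 1459, Serpina1d at 1328, Serpina1b at 998.3 and Serpina1a at 714.4 CPM per kb. Serpina1e and Serpina3k overlapped in their tumor values, so their order is not separated by the spread. The first members of other clades were Serpinf2 at 339.3 and Serping1 at 336.2 CPM per kb, ahead of Serpind1 at 257.9, Serpinc1 at 186.6 and Serpinf1 at 177.0 CPM per kb. The highest member of clade H, Serpinh1, averaged 30.74 CPM per kb, and the highest of clade B by this measure, Serpinb6b, 23.2 CPM per kb. This order depends on the deposited length, which can exceed that of a coding transcript. It was 5409 bases for Serpinb6a and 8546 for Serpinc1, whose transcripts held 1498 and 4921 windows of 50 bases. Without division by length, Serpinb6a averaged 73.12 CPM against 51.03 for Serpinb6b, and Serpinc1 1595 CPM against 788.6 for Serpinf2.

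Of the 60 members, 39 passed the filter on low counts: 21 of 23 in clade A, 9 of 26 in B, 2 of 3 in E, both in F, 1 of 2 in I, and the single members of C, D, G and H. The filter was reached in all 4 groups by 34 of them, and Serpinb1b reached it in 1 group only. Serpinb3a, Serpinb3b, Serpinb3d, Serpinb9g, Serpinb11 and Serpinb13 had no count in any tumor, which allows up to 0.00417 CPM over the 12 tumors (a floor of 3 counts, counting error only). The other 15 untested members had between 1 and 58 counts in all tumors together: Serpina1f, Serpina3a, Serpine3, Serpini2, Serpinb2, Serpinb3c, Serpinb5 (maspin), Serpinb6d, Serpinb6e, Serpinb7, Serpinb9c, Serpinb9d, Serpinb9e, Serpinb9f and Serpinb12. The clade B genes lie in 2 clusters, and the members on chromosome 1 (chr1:106861173-107610484) were mostly at or near 0, with 1 of 11 tested, against 8 of 15 on chromosome 13 (chr13:32842092-34002794).

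**Figure D1:**
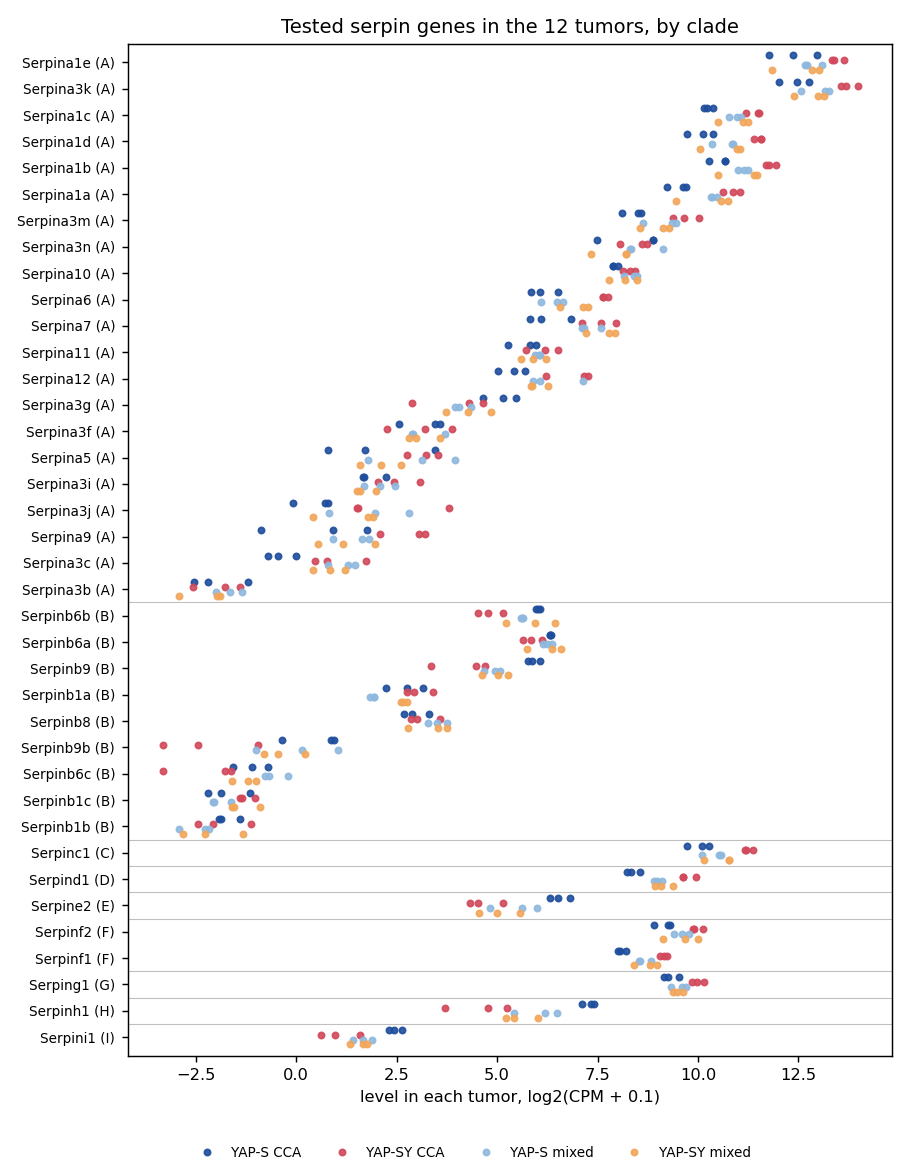
Level of 38 of the 39 tested serpin genes in each of the 12 tumors, on the x axis as log2(CPM + 0.1), with genes in rows by clade (letter in brackets) and by falling mean level. Each point is 1 tumor; YAP-SY CCA points lie to the right of YAP-S CCA points for most high clade A, C, D, F and G genes and to the left for Serpinh1, Serpine2 and Serpinb9.

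The first comparison asks how serpin mRNA differs between YAP-SY and YAP-S among CCA tumors. In YAP-SY CCA tumors 18 members were higher and 7 lower, out of 39 tested. Of all 18318 tested genes 39.1% were called in this comparison, 18.3% higher and 20.8% lower. In clades A, C and D together 15 of 23 tested members were higher and 0 lower, with a median log2 difference of 1.26. In clades B, E, F and H 2 of 14 were higher and 6 lower, with a median of -0.81. The median over all tested genes was -0.0011. Both rises outside clades A, C and D in that second set were the clade F genes, so clade F had the direction of clades A, C and D. The single clade G gene was higher and the tested clade I gene lower. The tumors of the 2 groups did not overlap for 19 members on the higher side and 8 on the lower, where 24.3% and 28.3% of all tested genes did not overlap. With library size alone in place of TMM scaling, the median of all genes shifted by -0.56, and 13 members were higher and 9 lower. In that run 760 of all 18318 tested genes were higher and 8064 lower.

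**Figure D2:**
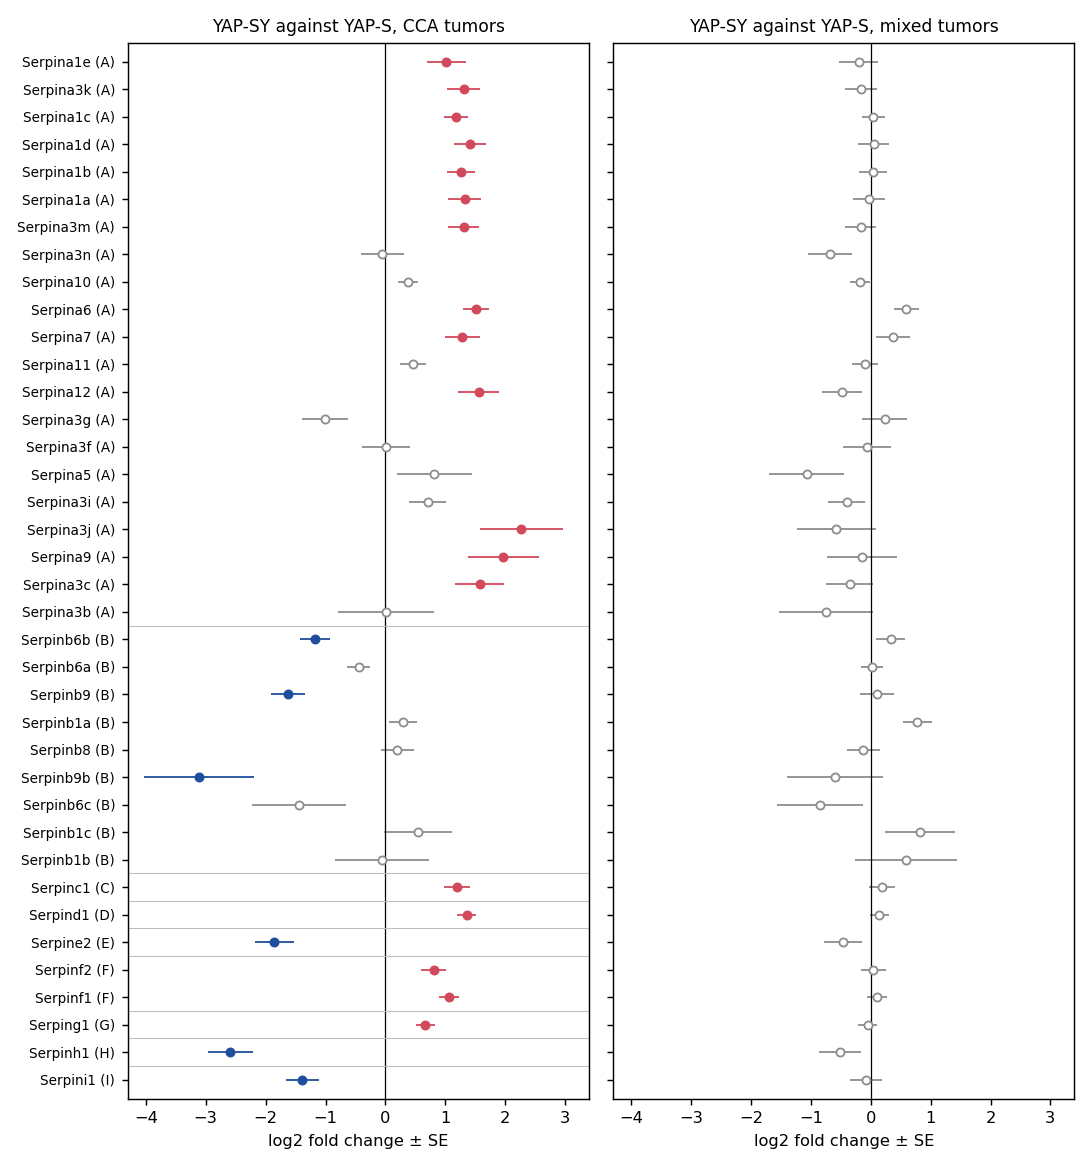
Difference of YAP-SY from YAP-S as log2 fold change ± SE from edgeR, for 38 of the 39 tested serpins, in CCA tumors (left) and mixed tumors (right). Filled points passed an adjusted p of 0.05 (red higher, blue lower) and open points did not; 24 are filled on the left and 0 on the right.

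The 5 tested Serpina1 genes encode the mouse forms of alpha-1-antitrypsin, the main plasma inhibitor of neutrophil elastase. They are near-identical copies on chromosome 12, with 1239 coding bases each, 86 positions that differ among the 5, and pairwise identities from 96.3 to 98.5%. The 60 coding bases below hold 18 of these positions, where the median window of that length holds 4. They are shown because they are where the copies can be told apart, and they lie 79 bases before the end of the coding sequence, the end where a serpin carries its reactive centre loop. Capitals mark positions at which the 5 copies differ. All lie in exon 5 of 5 on the minus strand, at coding positions 1101 to 1160 (GENCODE M21, GRCm38).
Serpina1a: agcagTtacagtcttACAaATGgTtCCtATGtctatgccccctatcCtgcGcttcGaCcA
Serpina1b: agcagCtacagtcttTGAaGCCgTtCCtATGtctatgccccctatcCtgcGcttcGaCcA
Serpina1c: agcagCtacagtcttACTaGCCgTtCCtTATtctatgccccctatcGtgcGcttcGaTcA
Serpina1d: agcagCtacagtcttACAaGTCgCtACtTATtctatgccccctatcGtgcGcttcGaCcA
Serpina1e: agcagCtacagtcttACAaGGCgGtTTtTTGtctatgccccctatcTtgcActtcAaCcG
The Serpina1a window spans chr12:103853757-103853816, Serpina1b chr12:103728324-103728383, Serpina1c chr12:103895094-103895153, Serpina1d chr12:103763762-103763821 and Serpina1e chr12:103947100-103947159.

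How the authors assigned reads that match several copies is not given in the sources used here. Of the 50-base windows of a copy's transcript, 80.9% also occurred in another gene for Serpina1a, 79.3% for Serpina1c, 50.9% for Serpina1d, 47.1% for Serpina1b and 37.9% for Serpina1e, so the split between copies is uncertain. Their counts were therefore also added up. The sum was 10110 (tumor 3), 12940 (tumor 4) and 7277 CPM (tumor 5) for YAP-S CCA, against 22920 (tumor 1), 22800 (tumor 6) and 21300 CPM (tumor 8) for YAP-SY CCA. It was 14500, 13140 and 15940 CPM in YAP-S mixed tumors 2, 7 and 9, and 16650, 8280 and 16340 CPM in YAP-SY mixed tumors 3, 5 and 9. The 3 YAP-SY CCA tumors lay above the other 9, and YAP-SY mixed tumor 5 lay among the YAP-S CCA tumors. In CCA the sum was 2.21-fold higher in YAP-SY (log2 difference 1.14 ± 0.28 SE, edgeR adjusted p = 0.00684).

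**Figure D3:**
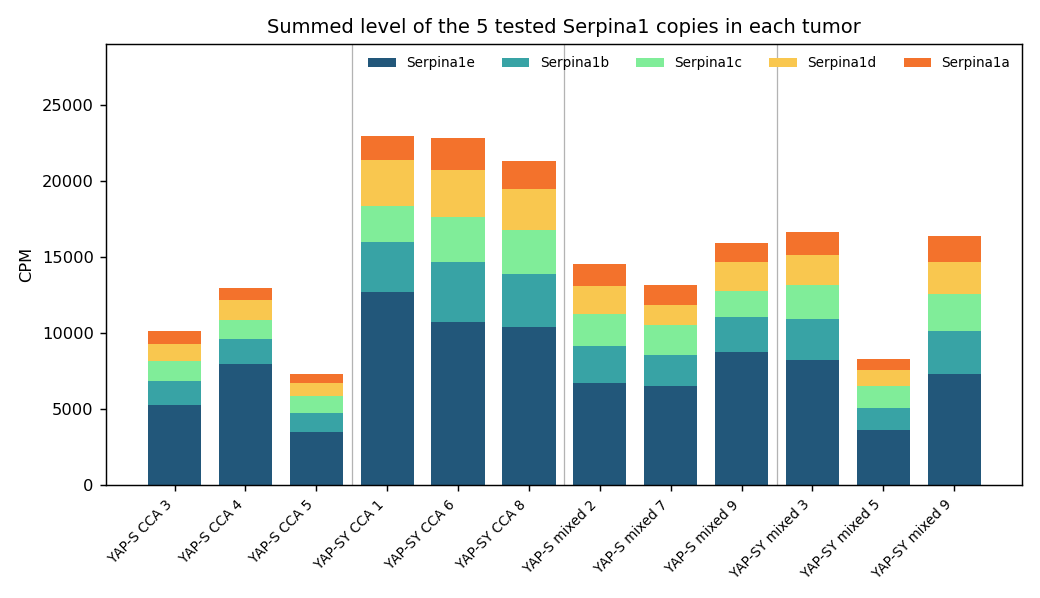
Stacked CPM of the 5 tested Serpina1 copies in each tumor, grouped by genotype and tumor type; the height of a bar is the summed level. The 3 YAP-SY CCA bars reach 21300 to 22920 CPM and the 3 YAP-S CCA bars 7277 to 12940 CPM.

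Each copy was called higher in YAP-SY CCA. Serpina1d was 1118, 1337 and 842.6 CPM in YAP-S CCA and 3011, 3054 and 2694 CPM in YAP-SY CCA, a log2 difference of 1.41 ± 0.26 (SE; edgeR adjusted p = 0.00158). Serpina1a was 832.9, 786.7 and 597.0 CPM against 1580, 2106 and 1864 CPM (1.32 ± 0.28, adjusted p = 0.00281). Neither gene overlapped between the groups. Serpina1b (1618, 1642 and 1233 CPM against 3318, 3957 and 3478 CPM) differed by 1.26 ± 0.24, and Serpina1c (1324, 1192 and 1126 CPM against 2349, 2956 and 2899 CPM) by 1.17 ± 0.20. These 4 copies kept their call in every alternative run. Serpina1e was 5224, 7982 and 3480 CPM against 12660, 10720 and 10360 CPM (1.02 ± 0.33, adjusted p = 0.0274), also without overlap. Its call was lost without YAP-S CCA tumor 3 (adjusted p = 0.0811) or 5 (0.108), without YAP-SY CCA tumor 1 (0.0709) or 6 (0.0534), and with library size alone (log2 difference 0.47).

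The makeup of the sum changed little next to its size. Serpina1e held 47.8 to 61.7% of the summed counts in YAP-S CCA, 47.0 to 55.2% in YAP-SY CCA, 46.1 to 54.8% in YAP-S mixed and 43.9 to 49.3% in YAP-SY mixed, and these ranges overlapped. Serpina1d held 10.3 to 11.6% in YAP-S CCA and 12.6 to 13.4% in YAP-SY CCA, which did not overlap. The deposited span of Serpina1b (chr12:103728156-103830373) encloses Serpina1d and the pseudogene Gm8893, which had 409327 counts in the tumors, so reads in that stretch may have been assigned to either gene.

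Since the split of reads between the 5 copies is uncertain, their joint change does not count as 5 separate results. The bases just before their start sites are shown as a description, and their part in the change was not tested. They are RefSeq promoters (GRCm38.p6), and each line gives the 100 bases before the annotated start on the minus strand. Capitals mark GTTAAT, 1 arm of the palindromic motif of HNF1, a hepatocyte and epithelial transcription factor.
Serpina1a: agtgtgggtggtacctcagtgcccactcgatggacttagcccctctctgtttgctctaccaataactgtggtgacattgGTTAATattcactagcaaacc
Serpina1b: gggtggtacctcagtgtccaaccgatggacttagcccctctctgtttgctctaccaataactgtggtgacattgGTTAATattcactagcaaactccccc
Serpina1c: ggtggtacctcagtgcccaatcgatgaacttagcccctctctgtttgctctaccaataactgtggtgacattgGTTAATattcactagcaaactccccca
Serpina1d: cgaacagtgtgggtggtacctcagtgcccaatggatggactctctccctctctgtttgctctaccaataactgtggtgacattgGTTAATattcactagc
Serpina1e: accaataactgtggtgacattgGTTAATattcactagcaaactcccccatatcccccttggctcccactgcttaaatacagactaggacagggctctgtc
These stretches lie at chr12:103863620-103863719, chr12:103738190-103738289, chr12:103904951-103905050, chr12:103773634-103773733 and chr12:103956898-103956997 for Serpina1a to Serpina1e. The match begins 21, 26, 27, 16 and 78 bases before the annotated start in the same order, and the bases around it are shared by all 5 copies, so they count as 1 sequence rather than 5.

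Promoters were found by symbol for 51 of the 60 members and searched over 250 bases before the start, on both strands. The 5 Serpina1 copies were counted as 1 sequence, which left 9 sequences called higher in YAP-SY CCA, 6 called lower and 32 others. These 32 mix members that were tested and not called with members whose counts were too low to test. They are therefore not a set of serpins shown to be unchanged. GTTAAT occurred in 3 of the 9 higher (the Serpina1 copies, Serpina3c and Serpina7), 0 of the 6 lower and 4 of the 32 others. Those 4 were Serpinb3b, Serpinb3d, Serpinb8 and Serpini2, of which only Serpinb8 was tested. Of all 32851 promoters in the table, 6.43% hold GTTAAT. The CEBP letters TTGCNNAA occurred in 3 of 9, 0 of 6 and 7 of 32 in the same order (9.56% of all promoters). Those 3 were Serpina7, Serpina12 and the Serpina1 copies other than Serpina1a and Serpina1c. The TEAD letters GGAATG, to which the DNA-binding partners of YAP bind, occurred in 3 of 9 (Serpina3j, Serpina7 and Serpina12), 0 of 6 and 7 of 32 (12.6% of all). The AP-1 letters TGANTCA occurred in 1 of 9, the Serpina1 copies other than Serpina1e, in 0 of 6 and in 6 of 32 (6.75% of all). The AP-1 letters read the same on both strands. The full HNF1 palindrome, which is GTTAAT, any base and the reverse complement of GTTAAT, and the HNF4 letters CAAAGTCCA occurred in no member's window. A match describes letters and not a bound site.

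The Serpina3 genes are the mouse expansion of a gene whose human form, alpha-1-antichymotrypsin, blocks cathepsin G and chymase. Of 10 members 9 were tested, and 4 were higher and 0 lower in YAP-SY CCA (18.3% and 20.8% of all tested genes). Serpina3k (chr12:104338486-104346144) was 5650, 6991 and 4157 CPM in YAP-S CCA and 13170, 16080 and 12160 CPM in YAP-SY CCA, a 2.47-fold difference (log2 1.30 ± 0.27 SE, edgeR adjusted p = 0.00278). Serpina3m was 363.5, 380.6 and 276.9 CPM against 808.9, 1047 and 665.6 CPM (1.31 ± 0.26, adjusted p = 0.00217). Neither overlapped between the groups. The annotated spans of Serpina3k and Serpina3m share their start and 12.8% of the 50-base windows of Serpina3k occur in Serpina3m. Their summed counts differed by 1.30 on the log2 scale (adjusted p = 0.00278).

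Serpina3c was measured at a low level, 0.898, 0.512 and 0.632 CPM in YAP-S CCA and 1.29, 3.22 and 1.61 CPM in YAP-SY CCA (1.57 ± 0.40, edgeR adjusted p = 0.00902). Serpina3j was 1.63, 1.54 and 0.843 CPM against 2.83, 13.95 and 2.78 CPM (2.27 ± 0.69, adjusted p = 0.0205). The groups did not overlap for either gene, but YAP-SY CCA tumor 6 stood above the rest for Serpina3j. Without that tumor the difference was 1.06 (adjusted p = 0.176), and the call was also lost without YAP-S CCA tumor 4 (adjusted p = 0.0501) or 5 (0.0766) and with voom weights (0.104).

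The remaining 5 tested Serpina3 copies were not called, and their groups overlapped in CCA. Serpina3n, an acute-phase inhibitor of leukocyte proteases, was 468.6, 474.9 and 179.2 CPM in YAP-S CCA and 425.9, 267.6 and 389.6 CPM in YAP-SY CCA (-0.05 ± 0.37). Serpina3g was 25.01, 44.08 and 35.18 CPM against 7.32, 25.02 and 19.48 CPM (-1.01 ± 0.38, edgeR adjusted p = 0.0537). It was thus the only tested clade A gene besides Serpina3n with a negative value. Serpina3i was 4.62, 3.07 and 3.14 CPM against 4.01, 8.39 and 5.29 CPM (0.70 ± 0.31, adjusted p = 0.0857). Serpina3f (0.01 ± 0.40) spanned 4.74 to 14.73 CPM over the 12 tumors, and Serpina3b (0.01 ± 0.80) 0.0333 to 0.338 CPM.

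Of the 7 other clade A genes, all tested, 4 were higher in YAP-SY CCA and 0 lower (18.3% and 20.8% of all tested genes). Both hormone carriers of the clade were among them. Serpina6, the corticosteroid-binding globulin, was 67.11, 91.72 and 56.97 CPM in YAP-S CCA and 200.5, 217.6 and 198.7 CPM in YAP-SY CCA (1.51 ± 0.22 SE, edgeR adjusted p = 0.000366). Serpina7, the thyroxine-binding globulin on chromosome X, was 113.6, 55.98 and 68.56 CPM against 138.2, 248.2 and 192.7 CPM (1.28 ± 0.29, adjusted p = 0.00438), and its call was lost with library size alone (0.71). Neither overlapped.

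Serpina12 (vaspin, an inhibitor of kallikrein 7) was 51.38, 32.18 and 42.95 CPM in YAP-S CCA and 74.92, 143.0 and 154.6 CPM in YAP-SY CCA (1.56 ± 0.34 SE, edgeR adjusted p = 0.0037). Serpina9, best known from germinal centre B cells, was 0.444, 3.28 and 1.78 CPM against 9.13, 4.17 and 8.18 CPM (1.97 ± 0.59, adjusted p = 0.0196). Both were without overlap. The Serpina9 call was lost when tumor 5 of YAP-S CCA was left out (adjusted p = 0.0584), when tumor 1 of YAP-SY CCA was left out (0.0543) and with library size alone (0.0661), and its difference was 2.73 without YAP-S CCA tumor 4. Serpina10, a cofactor-dependent inhibitor of factor Xa, was not called at 0.38 ± 0.17 (adjusted p = 0.101) although its groups did not overlap. Serpina11 (0.46 ± 0.22) and Serpina5, the protein C inhibitor (0.81 ± 0.63), were not called and overlapped.

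Outside clade A, the tested genes of clades C, D, F and G, which encode secreted proteins, were all higher in YAP-SY CCA. Serpinc1 (antithrombin, chr1:160978585-161005863) was 1102, 1235 and 841.6 CPM in YAP-S CCA and 2628, 2328 and 2297 CPM in YAP-SY CCA (1.19 ± 0.22 SE, edgeR adjusted p = 0.0013). Serpind1 (heparin cofactor II, a thrombin inhibitor, chr16:17331371-17343575) was 322.7, 377.3 and 303.0 CPM against 790.6, 981.0 and 791.3 CPM (1.35 ± 0.16, adjusted p = 0.000169). For both genes the YAP-SY CCA tumors were above all 9 others. Zbtb37 overlaps Serpinc1 and Pi4ka overlaps Serpind1, with 12829 and 48065 counts in the tumors, and the library kit does not mark strand.

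Serpinf1 (pigment epithelium-derived factor, which inhibits no protease) was 293.4, 264.3 and 257.4 CPM in YAP-S CCA and 565.9, 529.0 and 601.9 CPM in YAP-SY CCA (1.06 ± 0.16 SE, edgeR adjusted p = 0.000537). Serpinf2 (alpha-2-antiplasmin) was 634.6, 605.7 and 479.2 CPM against 955.9, 935.8 and 1117 CPM (0.81 ± 0.21, adjusted p = 0.00948). Serping1, the inhibitor of the first complement proteases, was 607.1, 740.7 and 570.3 CPM against 1126, 915.6 and 1003 CPM (0.67 ± 0.16, adjusted p = 0.00625). None of the 3 overlapped between the groups. With library size alone Serpinf2 (0.25) and Serping1 (0.11) were no longer called.

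Hepatocyte markers were read beside these genes in the same fit. Of these 8, 7 were higher and 0 lower in YAP-SY CCA, with a median log2 difference of 1.32, close to the 1.26 of clades A, C and D. Alb, for example, differed by 1.51 ± 0.21 (SE). The part of these cells in the serpin differences was not tested.

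**Figure D4:**
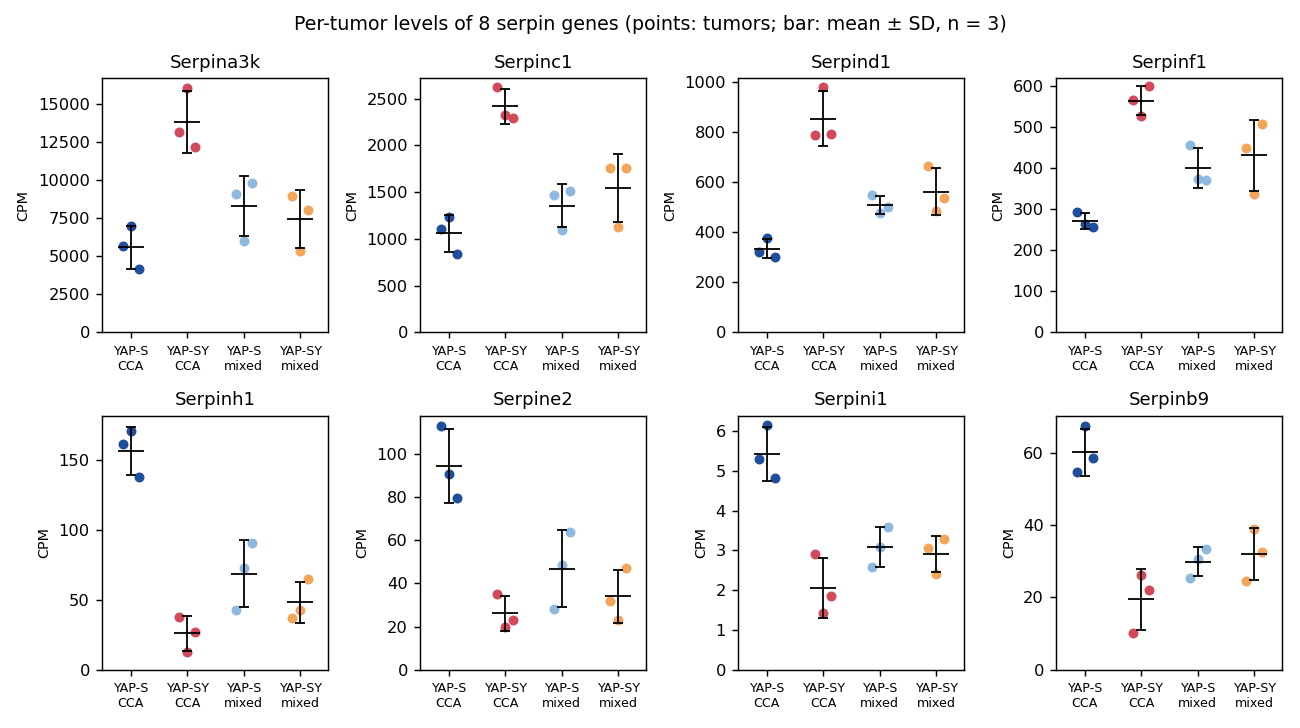
CPM of 8 serpin genes in each tumor by group (points), with the mean ± SD of 3 tumors (bars), linear axes from 0. Serpina3k, Serpinc1, Serpind1 and Serpinf1 are highest in YAP-SY CCA; Serpinh1, Serpine2, Serpini1 and Serpinb9 are highest in YAP-S CCA.

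Serpinh1, Serpine2 and Serpini1 were lower in YAP-SY CCA. Serpinh1, the collagen chaperone HSP47 (chr7:99345375-99353230), was 161.3, 170.7 and 137.6 CPM in YAP-S CCA and 37.81, 12.83 and 27.27 CPM in YAP-SY CCA. The lowest YAP-S CCA tumor was above every tumor of the other 3 groups. The difference was 6.02-fold (log2 -2.59 ± 0.37 SE, edgeR adjusted p = 0.000355). Serpine2 (protease nexin-1, an inhibitor of thrombin and plasminogen activators, chr1:79794197-79861180) was 113.0, 90.89 and 79.44 CPM against 35.21, 20.01 and 23.09 CPM (-1.85 ± 0.32, adjusted p = 0.00107). It too was higher in the YAP-S CCA tumors than in all 9 others.

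Serpini1 (neuroserpin, an inhibitor of tissue plasminogen activator) was low, at 5.30, 6.14 and 4.82 CPM against 2.90, 1.43 and 1.86 CPM (-1.39 ± 0.27, adjusted p = 0.00208), without overlap.

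Clade B serpins act mostly inside cells, and 3 of the 9 tested were lower in YAP-SY CCA and 0 higher. Of all tested genes 20.8% were lower and 18.3% higher, so a count of this size in 9 genes does not set the clade apart. Serpinb9, an inhibitor of granzyme B (chr13:33003250-33017957), was 54.60, 67.31 and 58.49 CPM in YAP-S CCA and 10.08, 26.11 and 22.12 CPM in YAP-SY CCA (-1.63 ± 0.28 SE, edgeR adjusted p = 0.00105). Serpinb6b, of the group that inhibits cathepsin G, was 62.18, 67.06 and 64.32 CPM against 22.97, 35.50 and 27.49 CPM (-1.17 ± 0.25, adjusted p = 0.00297). Neither overlapped. Serpinb9b was 1.73, 1.82 and 0.679 CPM against 0, 0.419 and 0.0835 CPM (-3.11 ± 0.91, adjusted p = 0.0174). YAP-SY CCA tumor 1 had no count of it. The call was lost without YAP-SY CCA tumor 8 (adjusted p = 0.0582), and the difference moved to -2.49 without tumor 1 and to -5.14 without tumor 6.

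Serpinb6a, the highest clade B gene after Serpinb6b per kb of deposited length, was 79.92, 79.87 and 80.54 CPM in YAP-S CCA and 49.64, 69.04 and 57.29 CPM in YAP-SY CCA. It did not overlap but was not called (-0.45 ± 0.19, edgeR adjusted p = 0.0781), and Nqo2 and Ripk1 overlap its span. Serpinb1a (an elastase inhibitor of neutrophils and monocytes, 0.29 ± 0.24) and Serpinb8 (0.20 ± 0.28) were not called, and their tumors overlapped. Serpinb1b (-0.06), Serpinb1c (0.54) and Serpinb6c (-1.45) stayed below 1 CPM in every tumor and were not called.

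The markers of stromal and immune cells read beside these falls were lower as well. In YAP-SY CCA 7 of 8 fibroblast and stellate cell markers were lower and 0 higher (median -2.14), and 5 of 8 T and NK cell markers were lower and 0 higher (median -1.95). The T and NK cell sum was 7.77 to 24.74 CPM in YAP-S CCA and 3.33 to 5.98 CPM in YAP-SY CCA. Of 8 cholangiocyte markers 6 were lower and 0 higher (median -1.94). Mast cell markers had 4 of 6 tested lower, and macrophage and endothelial markers were mixed, with 2 higher and 3 lower each. The part of these cells in the falls was not tested.

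The proteases and clients that serpins meet were read from lists, beside the 18.3% and 20.8% of all genes called higher and lower. All 13 coagulation proteases and cofactors were higher in YAP-SY CCA (median 1.11), the strongest being Klkb1, plasma prekallikrein (1.71 ± 0.27 SE, edgeR adjusted p = 0.000544), and F5 (1.44 ± 0.19, adjusted p = 0.000217). Of 6 complement genes of the steps that Serping1 holds back, the 5 proteases were higher, and C4b, a substrate and not a protease, was not called at 0.31. Of 10 fibrinolysis genes 2 were higher and 4 lower. Plg, the plasminogen gene (1.14 ± 0.22), and Vtn, vitronectin (0.49 ± 0.17), were higher. Plat (-2.62 ± 0.28) and Plau (-1.55 ± 0.33), the plasminogen activators, were lower, as were the receptor Plaur (-2.83 ± 0.42) and Thbd (-1.48 ± 0.29). The plasminogen activators were thus lower together with Serpine2, and plasminogen higher together with Serpinf2.

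All 8 collagen clients of Serpinh1 were lower in YAP-SY CCA (median -2.46), among them Col1a1 (-3.45 ± 0.50 SE, edgeR adjusted p = 0.000366) and Col5a2 (-2.55 ± 0.23, adjusted p = 8.84e-05). Among leukocyte proteases 5 of 7 tested were lower and 0 higher, including Gzmb, the target of Serpinb9 (-1.53 ± 0.46, adjusted p = 0.0186), and the mast cell tryptase Tpsb2, which was 0.848, 1.76 and 1.40 CPM in YAP-S CCA and had no count in the 3 YAP-SY CCA tumors. Lysosomal cathepsins were divided, with Ctsl (0.94) and Ctsh (0.47) higher, Ctss (-1.69) and Ctsk (-1.47) lower and 3 of 7 not called. Of 6 tested trypsin-like membrane proteases of epithelium, St14 was lower (-1.83), Tmprss6 higher (0.64) and 4 were not called.

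Among mixed tumors no serpin was called between YAP-SY and YAP-S. edgeR called 0 of 39, and 0% of all tested genes. At an unadjusted p under 0.05 it gave 2 serpins and 3.01% of all genes, and DESeq2 and limma-voom also called 0 serpins. Serpina6 was 90.55, 68.49 and 99.18 CPM in YAP-S mixed and 141.4, 94.38 and 154.4 CPM in YAP-SY mixed (0.60 ± 0.21 SE, edgeR adjusted p = 0.999), with overlap. The groups did not overlap for 2 serpins on the higher side and 3 on the lower (4.3% and 4.05% of all genes). Serpinb1a was 3.73, 3.47 and 3.72 CPM against 6.62, 5.95 and 6.19 CPM (0.78 ± 0.24, adjusted p = 0.999), without overlap. Serpinh1 was 42.77, 72.98 and 90.38 CPM against 37.09, 42.62 and 65.01 CPM (-0.51 ± 0.35). Serpinc1 (1467, 1091 and 1509 CPM against 1756, 1128 and 1754 CPM), Serpina3k (9083, 6025 and 9791 CPM against 8968, 5335 and 8068 CPM) and Serpind1 (547.9, 478.6 and 500.3 CPM against 665.8, 484.4 and 538.1 CPM) overlapped between the 2 mixed groups. YAP-SY mixed tumor 5 had the lowest value of its group for Serpina3k, Serpinc1 and Serpind1.

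Within YAP-S, no serpin was called between CCA and mixed tumors. edgeR called 0 of 39 serpins and 0% of all genes, although 18 serpins and 19.8% of all genes had an unadjusted p under 0.05. DESeq2 called 13 serpins, voom with weights 20 and a fit of the 2 groups alone 14, so the count depends on the tool. Of all 18318 tested genes DESeq2 called 1037 higher and 476 lower, and voom 1987 and 1622. The fit of the 2 groups alone called 1602 higher and 791 lower of 17782. Clades A, C and D had a median of -0.57 in CCA relative to mixed, with Serpina12 (141.5, 59.75 and 66.55 CPM in YAP-S mixed) at -1.08 ± 0.34 (SE, edgeR adjusted p = 0.112). Serpinh1 was at 1.19 ± 0.35 (adjusted p = 0.0989), and Serpine2 (28.32, 48.67 and 63.64 CPM in YAP-S mixed) at 1.01 ± 0.32 (adjusted p = 0.113). All 3 were without overlap, as were 8 serpins on the higher and 12 on the lower side (20.2% and 17.6% of all genes). This comparison and the first share the YAP-S CCA tumors.

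Within YAP-SY, 1 serpin was called between CCA and mixed, where 2.9% of all genes were (2.7% lower and 0.207% higher). Serpinb6b was 22.97, 35.50 and 27.49 CPM in CCA and 61.33, 87.40 and 37.01 CPM in mixed tumors, without overlap (-1.11 ± 0.25 SE, edgeR adjusted p = 0.0376). Among the tumors compared, the call was lost when CCA tumor 1, 6 or 8 or mixed tumor 3 or 5 was left out. The differences in those runs went from -1.30 without CCA tumor 6 to -0.78 without mixed tumor 5. The call was also lost in a fit of the 2 groups alone. YAP-S tumors lie outside this comparison but share its fit. No serpin was called lower here once CCA tumor 3, 4 or 5 or mixed tumor 9 of that genotype was dropped. The groups did not overlap for 14 serpins on the higher side and 3 on the lower (7.99% and 12.1% of all genes). Clades A, C and D had a median of 0.63 with 0 of 23 called. Serpind1 was at 0.60 ± 0.16 (adjusted p = 0.0627) and Serpina3k at 0.89 ± 0.27 (adjusted p = 0.088).

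The difference of the YAP-SY effect between CCA and mixed tumors was tested directly. It passed for 15 serpins, 11 with a larger value in CCA and 4 with a smaller one, against 5.02% and 10.2% of all genes in each direction and 15.2% in all. With library size alone the split was 4 and 8, where 150 and 4180 of all 18318 tested genes passed. Of clades A, C and D 10 of 23 passed on the higher side and 0 on the lower, and of B, E, F and H 1 (Serpinf1) passed on the higher side and 3 on the lower. Serpind1 differed by 1.21 ± 0.23 (SE, edgeR adjusted p = 0.0073), Serpina12 by 2.04 ± 0.48 (0.0166), Serpinb6b by -1.51 ± 0.35 (0.0157) and Serpinh1 by -2.08 ± 0.50 (0.0184). The mixed tumors supply the other side of this test. Serpina12 was 141.5, 59.75 and 66.55 CPM in YAP-S mixed and 57.17, 76.89 and 57.90 CPM in YAP-SY mixed. Serpinb6b was 49.88, 47.95 and 49.30 CPM against 61.33, 87.40 and 37.01 CPM. Serpinb9, at -1.74 ± 0.40 (0.0153), was 25.45, 30.54 and 33.34 CPM against 24.58, 38.81 and 32.52 CPM. The 2 mixed groups overlapped for each. Serpine2 did not pass at -1.40 ± 0.45 (0.0524), and neither did Serping1 at 0.72 ± 0.23 (0.0501). Summed as 1 gene, the Serpina1 copies were at 1.22 ± 0.39 and did not pass (0.0528). The count of 15 was 3 without YAP-S mixed tumor 2, 6 without YAP-S CCA tumor 5, 8 without YAP-S mixed tumor 9. It was 9 when either tumor 3 of YAP-S CCA or tumor 6 of YAP-SY CCA was left out. The calls over all genes fell in these runs too, from 920 higher and 1868 lower to 202 and 856 without YAP-S mixed tumor 2.

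In SB1 cells the order of the family was different. These counts came from another table and were scaled separately, so levels are set side by side with no test. Serpinh1 was highest, at 394.9, 412.5 and 366.5 CPM in the 3 samples, or 160.7 ± 9.54 CPM per kb (SD, n = 3). Other high members were Serpinb6b at 113.9, 96.21 and 132.9 CPM (51.97 CPM per kb), Serpinb6a at 172.0, 177.0 and 208.9 CPM (34.38 CPM per kb), Serpinb9 at 61.13, 53.05 and 66.30 CPM (17.22 CPM per kb) and Serpinf1 at 34.73, 27.94 and 32.56 CPM (13.46 CPM per kb). Serpinh1 ranked 18 among the members in the tumors.

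Serpins took 0.104 to 0.149% of SB1 counts, and 16 of the 60 members averaged at least 1 CPM. Serpinb2 (plasminogen activator inhibitor 2) averaged 15.40 ± 2.74 CPM in SB1 (SD, n = 3) and at most 0.224 CPM in a tumor. Serpinb9b was 6.31, 3.89 and 31.73 CPM, above the 1.94 CPM of its highest tumor. Serpine2, lower in YAP-SY CCA together with Serpinh1, was only 1.21, 1.43 and 1.25 CPM in SB1, while Serpinh1 was the highest member there.

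Clade A genes, Serpinc1, Serpind1, Serpinf2 and Serping1 all stayed below 10 CPM in SB1. Serpina5, Serpina6, Serpina10, Serpina11 and Serpina12 had 0 counts in the 3 samples, which allows up to 0.0365 CPM over the group. Serpinc1 was 0.654, 0.159 and 0.722 CPM, Serpind1 0.686, 0.278 and 0.152 CPM, Serpina3k 0.588, 0.477 and 0.228 CPM, and Serping1 1.11, 0.397 and 1.25 CPM. Serpina1b, the highest of its cluster, was 7.87, 4.73 and 3.38 CPM. The 8 hepatocyte markers summed to 764.3 to 1297 CPM in SB1, most of it Alb at 612.4 to 1111 CPM. The 8 cholangiocyte markers summed to 2543 to 2938 CPM, most of it Krt19 at 1098 to 1787 CPM and Spp1 at 772.8 to 1070 CPM. Epcam reached at most 0.397 CPM and Cldn4 at most 0.076 CPM, and the other cholangiocyte markers lay between these.

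**Figure D5:**
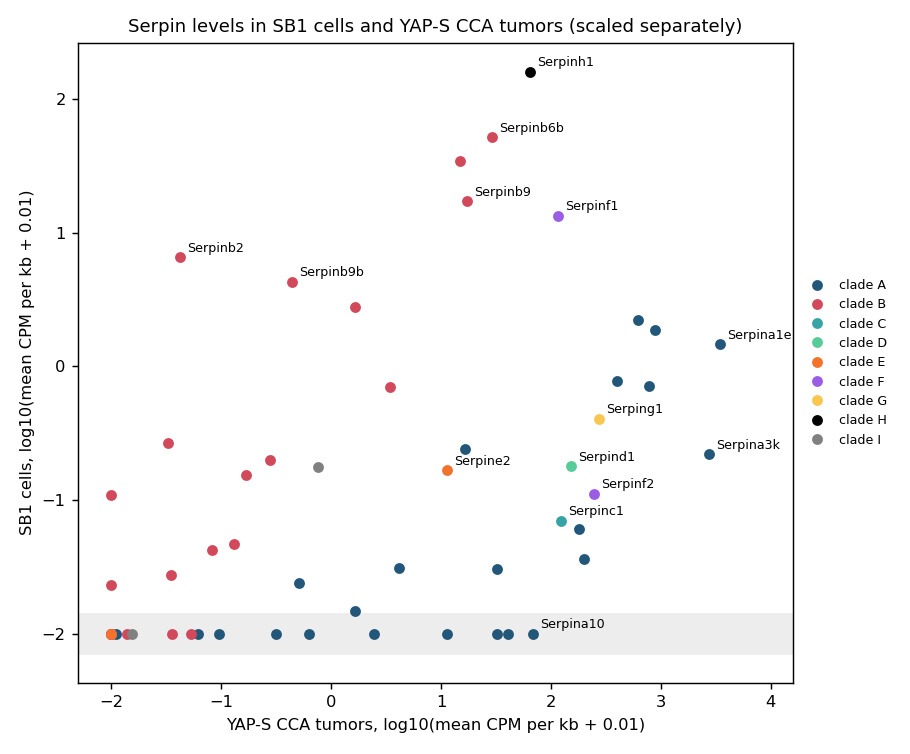
Mean level of serpins in SB1 cells (y axis, 3 samples) and in YAP-S CCA tumors (x axis, 3 tumors), both as log10(mean CPM per kb + 0.01), colored by clade; the tables were scaled separately and members with no count in either table are left out. The grey band marks 0 counts in SB1, where Serpina10 and other clade A genes lie, while Serpinh1 is at the top at 160.7 CPM per kb.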

How the data were processed

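Counts per gene for 12 tumors and, in a second table, for 3 SB1 samples were used as the authors deposited them. Per the labels' protocols, RNA came from a miRNeasy kit and libraries from TruSeq mRNA v2. STAR and mm10 are named in the submitters' processing notes. The counter, the annotation release and how the deposited tumor counts were corrected are not given in the sources used here. Another 3 per-sample columns that match no label were not used, and the 3 SY1 samples were not analysed here. Tumors were fitted together in edgeR 4.0.16 (R 4.3.3; filterByExpr with a minimum count of 10, TMM, quasi-likelihood F-test, 1 term per group) over 18318 genes, and Benjamini-Hochberg p-values were taken over all of them (threshold 0.05, two-sided). The 5 contrasts share tumors. SB1 counts were scaled by TMM separately over 14318 genes. Alternatives used other scalings and filters, DESeq2 1.42.0, limma 3.58.1 (voom with sample weights), the groups compared alone, each tumor left out, and near-identical copies summed. Scripts were tested on simulated data. Of the members, 60 matched GENCODE M21 (GRCm38) by ID and 54 had the deposited start and end.

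Members, gene lists and motifs were chosen with earlier results of these data known. Values by tumor were given for the 2 highest members of each clade, up to 8 largest called rises and falls per comparison (at 1 CPM or more on average in whichever group was higher), tested Serpina1 and Serpina3 copies, and the highest members in SB1. Any other member was picked for naming with its values known. The values of 1 tested member are not reported here, although it stays in the fits and counts.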

Additional observations from a re-analysis of the deposited data

Results flagged for a closer look

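For 15 serpins the effect of YAP-SY differed between CCA and mixed tumors by the direct test of that difference (edgeR, 15.2% of all genes). Each value below is the log2 effect in CCA minus that in mixed. Among the antitrypsin copies, Serpina1a differed by 1.35, Serpina1b by 1.21, Serpina1c by 1.13 and Serpina1d by 1.36, and these are not independent since the copies share most of their sequence. Serpina3c differed by 1.92, Serpina3k by 1.46, Serpina3m by 1.47 and Serpina12 by 2.04. Among the other secreted serpins, Serpinc1 differed by 1.0, Serpind1 by 1.21 and Serpinf1 by 0.95. On the negative side, Serpinh1 differed by -2.08, Serpinb9 by -1.74, Serpinb6b by -1.51 and Serpini1 by -1.31.

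Serpina12, Serpind1 and Serpinb6b passed in all 19 alternatives run for them. Serpinh1 and Serpinb9 missed the threshold only without YAP-S mixed tumor 2 (-1.83 and -1.63). Serpinc1 and Serpini1 each missed it in 10 of 19 alternatives. In the mixed tumors the 2 groups overlapped for all 15, and none had passed the test there. Of 8 hepatocyte markers, 6 passed the same test on the higher side and 0 on the lower. The fibroblast and stellate cell markers passed with 0 higher and 7 of 8 lower, and the part of these cells in the serpin values was not tested.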

How the results depend on the processing

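No paired analysis was possible because the groups compared share at most 1 tumor number. The count in CCA (25) and in mixed tumors (0) kept within 1.5 times under every alternative, and no called difference changed sign. Of the members not called in CCA, 9 changed sign under some alternative, and 7 of them with library size alone (Serpina3b, Serpina3f, Serpina10, Serpina11, Serpinb1a, Serpinb1c and Serpinb8). For CCA against mixed within YAP-S, where 0 serpins were called, library size alone gave 2, DESeq2 13, voom with weights 20, no count filter 4 and the groups compared alone 14. Over all genes, in the same order, these runs called 682, 1037, 1987, 448 and 1602 higher and 29, 476, 1622, 122 and 791 lower. Within YAP-SY, where 1 was called, library size alone gave 3, DESeq2 10, the groups compared alone 0, and leaving out 1 tumor 0 to 2. Over all genes library size alone called 18 higher and 1988 lower, DESeq2 451 and 1383, and the groups alone 0 and 0. For the difference of the YAP-SY effect, leaving out 1 tumor gave 3 to 18 calls in place of 15. Over all genes these runs called 201 to 1046 higher and 856 to 2031 lower. The cause was not tested.

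With 3 tumors a group, a missed threshold does not show that a serpin was equal between groups. Members below 1 CPM rest on few counts, and the near-identical copies share reads.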
